A study of Mus musculus with 8 samples.

Results

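The hypoxia-inducible factor (HIF) pathway lets cells match gene expression to their oxygen supply. An oxygen-labile alpha subunit, Hif1a or Epas1, pairs with the stable subunit Arnt and binds short DNA elements near its target genes. While oxygen is plentiful, the Egln prolyl hydroxylases mark the alpha subunit for the ubiquitin ligase subunit Vhl, and the asparaginyl hydroxylase Hif1an blunts its activity. Low oxygen releases the factor, which turns on glucose uptake, glycolysis, blood vessel growth, collagen processing and removal of mitochondria. In muscle the pathway is known for shifting fuel use towards glycolysis.

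The genes described here are 32 named members of this pathway, of 18193 genes with a probe set of their own on the arrays. They were chosen by name, with earlier results of these data known. Each gene was read from 1 probe set, selected by the highest mean signal over the 4 arrays of a type, with array type A taken first and type B used for genes that type A lacks. A probe set is a group of oligonucleotides for 1 transcript. Of the 32 genes, 31 had a value. Bnip3l, a mitophagy receptor related to Bnip3, is matched by 3 probe sets that carry a second gene symbol, and it was given no value. The 31 with a value fall into 23 HIF targets and 8 regulators of the pathway. Egln1 and Egln3 are counted as regulators although they are also known as HIF targets.

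The samples were total RNA of mouse skeletal muscle myotubes, the fused, contractile cells that muscle precursors form in culture. There were 4 RNAs, each read on 1 array of type A and 1 of type B, which gave 8 samples. The series title calls the cultures primary and names genes regulated by Egr3, an activity-induced zinc-finger transcription factor, as its subject. The labels describe 1 RNA as wildtype and 1 as truncated Egr3, both with a treatment of type grow. RNA275 has a treatment of type acclimatization and RNA276 has none, so both were left without a group and enter no contrast. The labels do not give the strain, the age of the animals, the oxygen supply of the cultures, or how the truncated Egr3 was made or delivered.

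With 1 RNA per label there was no replicate, no test across samples was possible, and each difference describes a pair of RNAs. The technical error was read from 100 probe sets present on both array types, for which the SD of a single log2 difference was 0.179. Those probe sets gave a log2 difference of truncated Egr3 minus wildtype that was on average 0.14 higher on type B. The SD is 1 value for all signal levels, and the error of dim probe sets was not estimated apart. All 8 arrays share 1 trimmed mean signal. Signals are in arbitrary units, and the level of one gene cannot be set against that of another. Egr3 itself read 769 in wildtype, 830 in truncated Egr3, 1454 in RNA275 and 2627 in RNA276 on type A, and 1420, 1039, 1203 and 771 on type B. The log2 differences of truncated Egr3 minus wildtype were 0.11 on type A, smaller than the SD of 0.179, and -0.45 on type B. The pair of probe sets thus did not check the label.

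All 12 myotube markers were above the signal floor in the wildtype RNA, with a summed signal of 30103 in wildtype, 25982 in truncated Egr3, 26378 in RNA275 and 29357 in RNA276. Of the marker lists for other cells, 8 of 10 endothelial and 8 of 10 macrophage genes were below the floor in both labelled RNAs, with defining genes such as the endothelial Pecam1 (11.5 and 7.98) and the leukocyte gene Ptprc (8.64 and 10.7) far below it. The measured ones were Kdr at -0.07, a bound, and Eng at 0.04, and Csf1r at -0.08 and Laptm5 at 0.16 in log2 difference of truncated Egr3 minus wildtype. Neither of the 2 red cell markers with a probe set was above the floor. Of 9 fibroblast markers 6 were above the floor, with summed signals between 8098 and 9749 over the 4 RNAs. Of these 6, 4 were higher in truncated Egr3 and 2 lower, with a median log2 difference of 0.12. Dcn, a matrix proteoglycan, was 2.02-fold and Fap, a surface protease, 1.74-fold higher, while the collagen genes Col1a1 and Col1a2 were at -0.33 and -0.19. Of 8 pericyte and smooth muscle markers 5 were above it, all lower in truncated Egr3, led by Tagln at -0.83 and Mcam at -0.82 in log2, the latter a bound, and their sums ran from 4504 in truncated Egr3 to 6192 in wildtype. The part of these cells in the results below was not tested. In bulk RNA, fewer cells of a type and less RNA per cell cannot be told apart.

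The HIF targets among the members read higher in the truncated-Egr3 RNA than in the wildtype RNA, almost without exception. Log2 differences are given as truncated Egr3 minus wildtype, after signals below a floor (67.6 on type A, 112.6 on type B) were raised to it. A gene is called measured here if the wildtype or the truncated-Egr3 RNA exceeded the floor. Of 21 measured targets, 20 had a difference above 0, as did 50.1% of all measured genes, and 15 were at least 1.5-fold higher (0.58 in log2), with none 1.5-fold lower. Their median was 0.72, against 0.00 over the 10307 measured genes of the array. Of the 7 measured regulators, 3 were at least 1.5-fold higher and the median was 0.45. Taking targets and regulators as 1 list, 18 of 28 were at least 1.5-fold higher, where 4.7% of all measured genes were, and 0 were 1.5-fold lower, where 4.59% were. At 2-fold, 5 members were higher, where 0.534% of all measured genes were, and none was lower, where 1.13% were.

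The members that were not measured were Epas1, Adm and Car12, whose representing probe sets did not reach the floor in either labelled RNA. Pfkfb3, Pgf and Car9 were measured only through the truncated-Egr3 RNA, so their differences could not have been negative and are lower bounds. All 3 are among the 20 targets above 0, and Pgf is among the 5 members at 2-fold. Among the 25 members above the floor in the wildtype RNA, 16 were at least 1.5-fold higher in truncated Egr3, and 4.35% of all such genes were. With no floor and no filter, 27 of the 31 members were higher in the truncated-Egr3 RNA and their median was 0.65, against -0.06 over all 18193 genes. When the arrays were scaled to equal medians instead, 19 members were at least 1.5-fold higher while the share over all genes went from 4.7% to 7.52%.

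**Figure D1:**
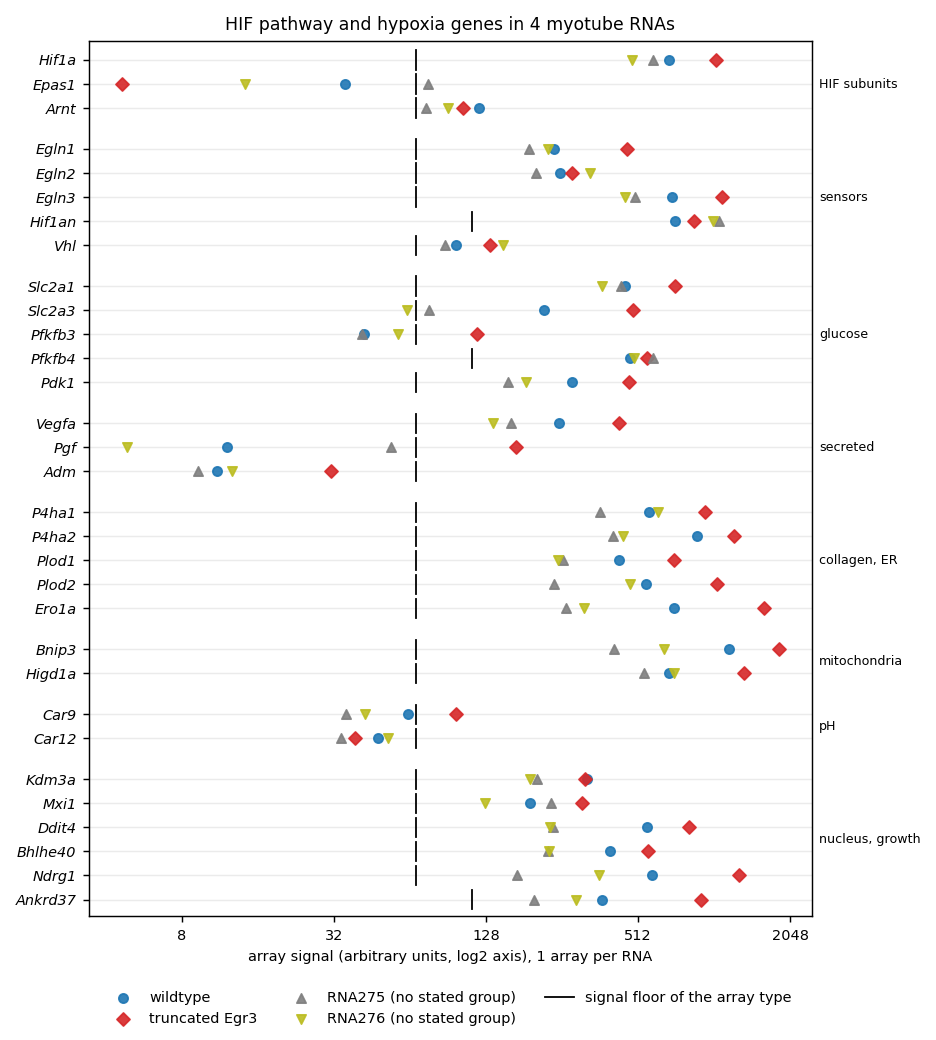
Array signal of the 31 members with a value, on a log2 axis in arbitrary units, with 1 point per RNA and a tick at the signal floor of the array type, grouped by role. The red diamonds of truncated Egr3 are furthest right in most rows, as for Ero1a at 1617, while Epas1, Adm and Car12 lie below the floor in both labelled RNAs.

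Of the HIF subunits, Hif1a had a higher signal in truncated Egr3 by each of its measured probe sets. The brightest read 680 in wildtype, 1041 in truncated Egr3, 586 in RNA275 and 484 in RNA276, a log2 difference of 0.61. Its dimmer probe sets above the floor gave 0.41 and 0.49, so the 3 shared a direction. Epas1, the other oxygen-labile subunit, went the other way where it could be read. Its type A probe set was above the floor in RNA275 alone, at 75.7. By its type B probe set Epas1 read 189 in wildtype, 72.4 in truncated Egr3, 468 in RNA275 and 78.8 in RNA276, a log2 difference of -0.75 or lower, since truncated Egr3 was below the floor. Arnt, the stable partner, read 120, 104, 73.8 and 90.2 in the same order of RNAs, a difference of -0.21, and its type B probe sets disagreed at -0.29 and 0.50. Hif1a and Epas1 thus had opposite signs, and no direction can be given for Arnt.

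The Egln oxygen sensors split by gene. Egln1, the main hydroxylase acting on Hif1a, read 238 in wildtype and 463 in truncated Egr3, with 189 in RNA275 and 225 in RNA276. Its log2 difference was 0.96, just under 2-fold, and 0.62 by its other probe set. Egln3, which is strongly induced by hypoxia in many cells, read 699, 1101, 497 and 456 in wildtype, truncated Egr3, RNA275 and RNA276. The difference was 0.65, and by its other probe set 1.28 (352 against 858). Egln2, the paralog not known as a typical hypoxia-induced gene, read 252, 281, 202 and 331, a difference of 0.16, which is smaller than the technical SD. Truncated Egr3 was the highest RNA for Egln1 and Egln3 but not for Egln2, for which RNA276 was.

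Vhl and Hif1an, the other brakes on the factor, were under 1.5-fold by their representing probe sets. Vhl read 97.8 in wildtype, 133 in truncated Egr3, 88.1 in RNA275 and 150 in RNA276, a difference of 0.45, while its type B probe set gave 0.87 (555 against 1011). Hif1an read 717, 852, 1074 and 1015, a difference of 0.25, with its other measured probe set at 0.07. For Vhl the wildtype and RNA275 signals were the low ones, and for Hif1an both labelled RNAs were lower than RNA275 and RNA276. Of the 18 other genes listed for HIF cofactors, ubiquitin ligase subunits and chaperones, 11 were measured and none was 1.5-fold apart. Their median was -0.05, and the largest differences were those of Siah1a, a ubiquitin ligase that acts on the Egln proteins, at -0.49, and Ep300, a coactivator, at 0.33.

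Glucose uptake and the switch to glycolysis came next. Slc2a3, a high-affinity glucose transporter, read 218 in wildtype, 491 in truncated Egr3, 76.1 in RNA275 and 62.6 in RNA276. It was 2.25-fold higher in truncated Egr3 than in wildtype, and both were well above the other RNAs, of which RNA276 was below the floor. The other measured Slc2a3 probe set gave a log2 difference of 1.02, and both of these probe sets are of kinds that the array maker marks for possible cross-hybridisation. Slc2a1, the widely expressed glucose transporter, read 456, 715, 439 and 369, a difference of 0.65, with other probe sets at 0.58 and 0.89. Slc2a1 and Slc2a3 therefore shared a direction, and Slc2a3 had the wider range over the 4 RNAs, 7.27-fold at least against 1.94-fold.

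Pdk1, the kinase that keeps pyruvate out of mitochondria, read 280 in wildtype, 472 in truncated Egr3, 156 in RNA275 and 185 in RNA276. Its difference of 0.75 was matched by 0.72 and 1.17 from other probe sets, and a dim one gave a bound of 0.33. Pfkfb3, which makes the activator of phosphofructokinase, was above the floor in truncated Egr3 alone, at 118 against 42.1, 41.5 and 57.2, a difference of at least 0.80. Its other probe set was below the floor in both labelled RNAs. Pfkfb4, its paralog, read 477, 556, 589 and 492, a difference of 0.22, and had the narrowest range of the members above the floor in all 4 RNAs, at 1.23-fold.

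Among the secreted signals, Vegfa, the main growth factor of blood vessels, read 249 in wildtype, 430 in truncated Egr3, 161 in RNA275 and 136 in RNA276, a difference of 0.79. Its other probe set read 191, 229, 189 and 203, a difference of 0.26, so the size of the Vegfa difference depended on the probe set. Pgf, a related growth factor, was above the floor in truncated Egr3 alone, at 169 against 12.1 in wildtype, 53.9 in RNA275 and 4.86 in RNA276. That is at least 2.50-fold higher than wildtype, and with the higher floor the bound was 0.74 in log2. Adm, a vasodilator peptide, was below the floor in all 4 RNAs by its representing probe set, at 11.0 in wildtype and 31.1 in truncated Egr3. By its type B probe set it read 252, 327, 243 and 198, a difference of 0.38.

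The enzymes of collagen processing and the secretory pathway were all highest in truncated Egr3. Ero1a, the oxidase that drives disulfide bond formation in the endoplasmic reticulum, read 713 in wildtype, 1617 in truncated Egr3, 265 in RNA275 and 313 in RNA276. It was 2.27-fold higher in truncated Egr3 than in wildtype, and both other probe sets gave 1.08 in log2. Plod2, which hydroxylates lysines at the ends of collagen chains, read 553, 1048, 239 and 475, a difference of 0.92, with its other probe set at 1.40. Plod1, its paralog, read 432, 708, 258 and 248, a difference of 0.71. P4ha1 and P4ha2, catalytic subunits of collagen prolyl hydroxylase, had differences of 0.72 and 0.50. P4ha1 read 568, 939, 362 and 616 and P4ha2 read 873, 1232, 406 and 446 in wildtype, truncated Egr3, RNA275 and RNA276. The second P4ha1 probe set gave 0.24, under 1.5-fold.

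Of the mitochondrial members, Bnip3, a receptor for mitophagy, read 1179 in wildtype, 1850 in truncated Egr3, 411 in RNA275 and 651 in RNA276. Its difference between the labelled RNAs was 0.65, while its highest and lowest RNAs were 4.50-fold apart. Higd1a, a small protein of the inner mitochondrial membrane, read 680, 1348, 540 and 710, a difference of 0.99, and 1.26 by another probe set. For Higd1a wildtype and RNA276 were close to each other and truncated Egr3 stood above them. The carbonic anhydrases, which regulate pH outside the cell, were dim. Car9 was above the floor in truncated Egr3 alone, at 97.3 against 63.0 in wildtype, and Car12 was above it in no RNA.

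The remaining targets act in the nucleus or in growth signalling. Ankrd37, an ankyrin repeat protein, read 368 in wildtype, 909 in truncated Egr3, 199 in RNA275 and 292 in RNA276, and was 2.47-fold higher in truncated Egr3 than in wildtype. Ndrg1, a stress-responsive protein linked to differentiation, read 581, 1288, 170 and 358 in the same order. It was 2.22-fold higher in truncated Egr3 by a probe set marked for possible cross-hybridisation, and its 4 other probe sets gave larger log2 differences, from 1.45 to 1.73, so the brightest one was the smallest. Mxi1, an antagonist of Myc, read 192, 306, 232 and 127, a difference of 0.67, and 0.66 by its other probe set. These were the members of the group past 1.5-fold.

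Ddit4, an inhibitor of mTOR complex 1, and Bhlhe40, a transcriptional repressor, were just under that threshold. Ddit4 read 556 in wildtype, 813 in truncated Egr3, 235 in RNA275 and 229 in RNA276, a difference of 0.55. Bhlhe40 read 397, 560, 225 and 227, a difference of 0.50. Both had the labelled RNAs well above RNA275 and RNA276. Kdm3a, a histone H3 lysine demethylase and a known HIF target, did not follow the group: it read 321, 316, 204 and 192, a difference of -0.02.

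**Figure D2:**
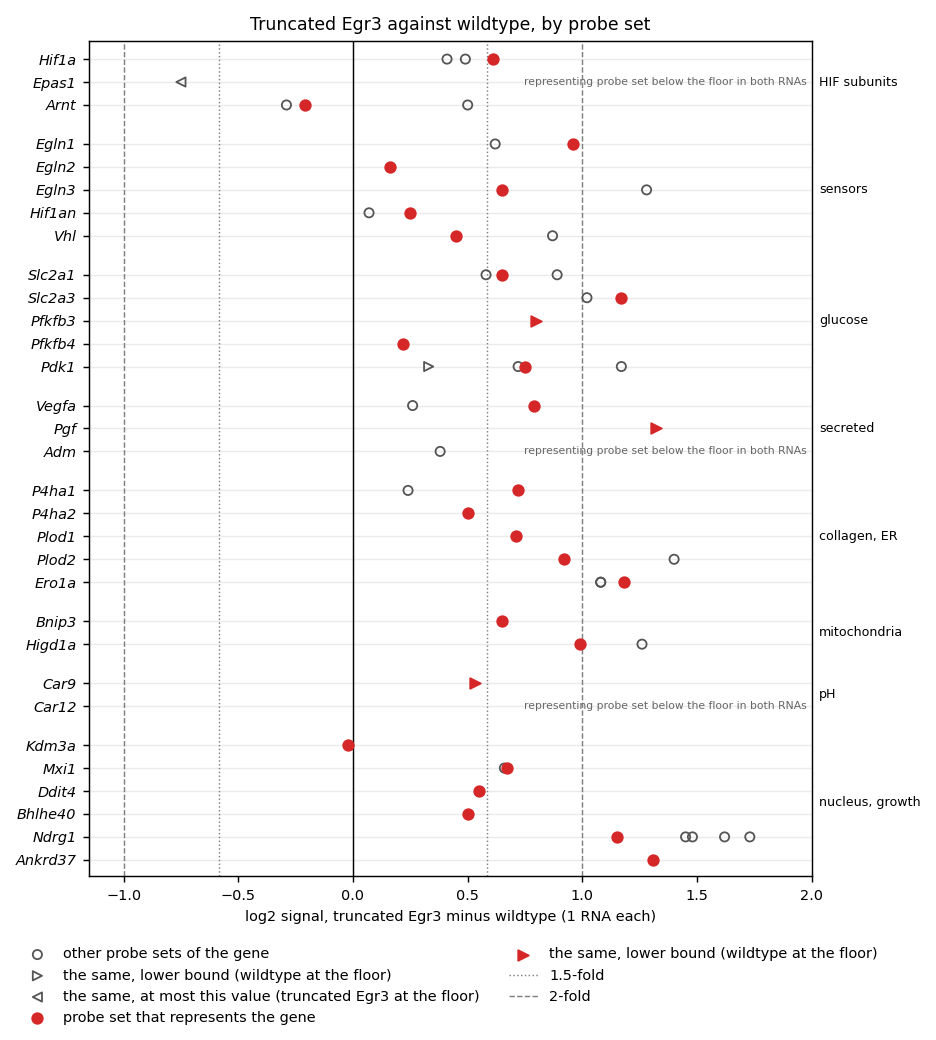
Log2 signal of truncated Egr3 minus wildtype for each member, with a filled mark for the probe set that represents the gene, open marks for its other measured probe sets, triangles for bounds, and lines at 1.5-fold and 2-fold. Of 25 other measured probe sets of genes with a filled mark, 24 lie on the same side of 0 as that mark, and the exception is Arnt. Adm at 0.38 and Epas1 at -0.75, a bound, have open marks only.

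The direction was mostly shared between probe sets of a gene. For 16 members with a measured representing probe set, 25 other probe sets were measured, and 24 had the same sign. Of these 25, 16 were at least 1.5-fold higher in truncated Egr3. For the genes that were themselves past 1.5-fold there were 21, of which 15 were past it too. The others belonged to Hif1a, P4ha1, Slc2a1, Vegfa and Pdk1. Probe sets of 1 gene share the RNA and the array, so they check the probe design and not the culture.

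The promoter sequences of a few targets are shown because HIF binds a short core, ACGTG or GCGTG, in its response elements. RefSeq windows of 250 bases before and 50 after the gene start (GRCm38.p6) were searched for ACGTG and GCGTG on both strands, so a match can also read CACGT or CACGC. The 6-base E-box CACGTG, bound by many other factors, contains the first of these on each strand and was counted as a match. Capitals mark the matches in the sequences, which run from 5′ to 3′ on the strand of the gene. Ankrd37, Ero1a and Pgf were past 2-fold with every probe set, Pgf as a bound, Higd1a had the largest difference under 2-fold, Bnip3 had a wide range over the RNAs, and Kdm3a showed no difference.
Ankrd37, chr8:45999801-46000100, minus strand: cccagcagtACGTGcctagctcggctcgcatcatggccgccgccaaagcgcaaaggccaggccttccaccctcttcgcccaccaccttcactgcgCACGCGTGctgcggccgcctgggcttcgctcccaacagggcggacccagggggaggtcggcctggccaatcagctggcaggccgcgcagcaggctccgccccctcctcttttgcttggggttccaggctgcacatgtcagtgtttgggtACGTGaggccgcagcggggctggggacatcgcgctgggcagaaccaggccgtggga
Ero1a, chr14:45318523-45318822, minus strand: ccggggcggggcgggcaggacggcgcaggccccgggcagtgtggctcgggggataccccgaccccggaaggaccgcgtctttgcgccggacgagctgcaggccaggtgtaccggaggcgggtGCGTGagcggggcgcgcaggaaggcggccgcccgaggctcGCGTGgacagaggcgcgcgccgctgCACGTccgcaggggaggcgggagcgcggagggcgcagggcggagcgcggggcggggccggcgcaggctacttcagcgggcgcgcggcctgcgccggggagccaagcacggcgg
Pgf, the more upstream of its windows, chr12:85177264-85177563, minus strand: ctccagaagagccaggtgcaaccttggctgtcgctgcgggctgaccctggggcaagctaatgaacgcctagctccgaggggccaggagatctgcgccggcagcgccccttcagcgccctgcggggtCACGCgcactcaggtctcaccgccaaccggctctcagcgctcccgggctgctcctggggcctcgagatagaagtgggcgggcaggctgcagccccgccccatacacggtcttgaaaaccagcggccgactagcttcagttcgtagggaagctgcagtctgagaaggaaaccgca
Higd1a, chr9:121857747-121858046, minus strand: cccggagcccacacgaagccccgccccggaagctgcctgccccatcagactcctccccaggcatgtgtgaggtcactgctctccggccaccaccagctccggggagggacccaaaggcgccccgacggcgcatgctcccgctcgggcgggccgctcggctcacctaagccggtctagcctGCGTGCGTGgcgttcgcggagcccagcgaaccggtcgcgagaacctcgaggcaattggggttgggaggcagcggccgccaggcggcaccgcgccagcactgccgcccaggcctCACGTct
Bnip3, chr7:138909457-138909756, minus strand: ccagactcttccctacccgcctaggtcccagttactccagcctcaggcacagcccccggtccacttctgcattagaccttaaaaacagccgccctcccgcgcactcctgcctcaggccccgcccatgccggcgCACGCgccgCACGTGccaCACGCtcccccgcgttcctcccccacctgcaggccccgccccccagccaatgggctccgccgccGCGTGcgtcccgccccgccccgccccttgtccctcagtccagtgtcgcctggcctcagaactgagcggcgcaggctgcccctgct
Kdm3a, the most upstream of its windows, chr6:71632868-71633167, minus strand: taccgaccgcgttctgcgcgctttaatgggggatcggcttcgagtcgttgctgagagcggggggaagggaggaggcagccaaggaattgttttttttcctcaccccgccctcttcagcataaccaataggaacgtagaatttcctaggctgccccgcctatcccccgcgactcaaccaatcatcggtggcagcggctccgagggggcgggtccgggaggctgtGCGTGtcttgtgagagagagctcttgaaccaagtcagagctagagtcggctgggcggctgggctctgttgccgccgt

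The Ankrd37 window held 4 matches, the nearest starting 6 bases before the gene start. The Ero1a and Higd1a windows held 3 each, and that of Bnip3 held 5, of which 2 are the overlapping strands of 1 CACGTG. The printed Pgf window held 1 and the other Pgf window 0. The printed Kdm3a window held 1, a GCGTG starting 27 bases before the gene start, and each of the 2 other Kdm3a windows held 0. The number of matches thus did not separate Pgf, which was higher in truncated Egr3, from Kdm3a. Of the 32 members, 26 had a window, and 23 of these genes (88.5%) had a match in at least 1 window. Over all genes with a window the share was 46.7%, and over the genes measured on the arrays it was 67.8%. For ACGTG alone the shares were 61.5% of members and 30.0% of measured genes. All 15 members with a window that were at least 1.5-fold higher in truncated Egr3 held a match, as did 7 of the 9 measured members with a window that were not. A match is a run of letters and not a binding site, and the windows hold only the proximal promoter.

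Over the 4 RNAs, truncated Egr3 was the highest for most targets, while for the regulators the count depended on the probe set. Of 29 members above the floor in at least 1 RNA, 22 were highest in truncated Egr3, where 24.0% of 11154 genes above the floor in at least 1 RNA were. For targets the count was 19 of 21, the exceptions being Kdm3a, highest in wildtype, and Pfkfb4, highest in RNA275. For the 8 regulators it was 3 by the representing probe sets. The brightest type B probe sets of Vhl and Arnt, brighter than the representing ones, were highest in truncated Egr3, at 1011 and 671. With the brightest probe set of either type, 25 members were highest in truncated Egr3, Adm among them. Pfkfb3, Pgf and Car9 were above the floor in truncated Egr3 alone, which fixed their place, and Epas1 in RNA275 alone. Without these 4, truncated Egr3 was the highest for 16 of 18 targets and 3 of 7 regulators, 19 of 25 members in all, where it was for 24.9% of 10123 genes above the floor in at least 2 RNAs. RNA275 was the lowest RNA for 14 members, where it was for 21.9% of all genes, and RNA276 for 9, where it was for 23.7%. Wildtype was the lowest for 2, where it was for 17.2% of all genes, and truncated Egr3 for 0, where it was for 21.0%.

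In 18 of the 29 members both labelled RNAs were above both RNA275 and RNA276, an arrangement found in 19.4% of all genes. In 16 of them truncated Egr3 was above wildtype as well, against 11.6% of all genes: 13 targets and 3 regulators, Hif1a, Egln1 and Egln3. This arrangement was noticed in the data before it was counted. It was read from the representing probe sets, and a further measured probe set of Plod2, of Vegfa and of Hif1a did not show it. Wildtype was thus not at the low end for most targets, and for Ero1a it read 713, against 265 in RNA275 and 313 in RNA276.

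The spread over the 4 RNAs was wide for the targets. The median range between the highest and the lowest RNA was 1.51 in log2 for 21 targets, 0.74 for 8 regulators and 0.54 for all 11154 genes. Ranges of at least 4-fold were found in 6 targets, where 1.5% of all genes had one: Ndrg1 at 7.56-fold, Slc2a3 at no less than 7.27-fold, Ero1a at 6.11-fold, Ankrd37 at 4.57-fold, Bnip3 at 4.50-fold and Plod2 at 4.38-fold. For each of these truncated Egr3 was the highest RNA. The lowest was RNA275 except for Slc2a3, for which it was RNA276. The other Plod2 probe set read 255 in wildtype, 673 in truncated Egr3, 279 in RNA275 and 303 in RNA276. By that probe set wildtype was the lowest and the range was under 4-fold. No regulator reached 4-fold by its representing probe set, but Egln3 and Epas1 did by another one. That of Egln3 read 858 in truncated Egr3 and 176 in RNA275. The type B probe set of Epas1 read 468 in RNA275, while truncated Egr3 and RNA276 were below the floor of 112.6.

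**Figure D3:**
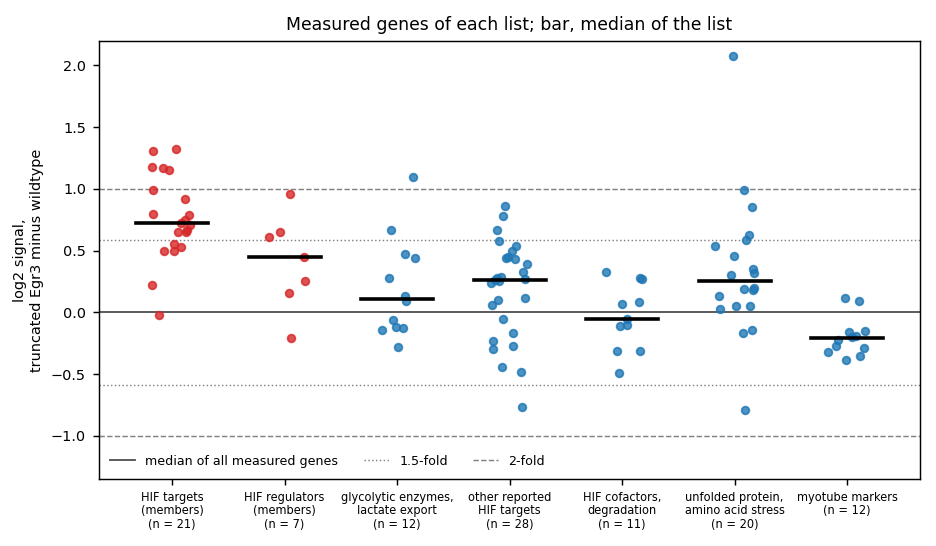
Log2 signal of truncated Egr3 minus wildtype for the measured genes of 7 lists, with 1 point per gene, a bar at the median of the list, and lines at the median of all measured genes, 1.5-fold and 2-fold. HIF targets have a median of 0.72, glycolytic enzymes of 0.11 and myotube markers of -0.21.

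Other genes reported as HIF targets were shifted less than the member targets. Both lists were chosen with earlier results of these data known, and how far that choice shaped the gap was not tested. Of 53 genes reported as HIF targets outside the members, 40 were measured. Of these 40, 27 were above 0 and 13 below, where 50.1% of all measured genes were above. In truncated Egr3, 5 were at least 1.5-fold higher, where 4.7% of all measured genes were. There was 1 gene 1.5-fold lower, where 4.59% of all were, and the median of the 40 was 0.25. The glycolytic enzymes among them, with lactate export and glycogen genes, had a median of 0.11 over 12 measured genes. Slc16a3, the lactate exporter, was the 1 gene past 2-fold, at 453 in wildtype, 968 in truncated Egr3, 234 in RNA275 and 444 in RNA276. Ppp1r3c, a glycogen-targeting subunit, had a difference of 0.67. The core enzymes Aldoa, Pgk1 and Ldha were bright in every RNA and had differences of -0.14, -0.28 and -0.12. Of the 12 measured genes, 5 were below 0 and 7 above, among the latter Pfkl at 0.47, Pgam1 at 0.28 and Tpi1 at 0.09. Whether bright probe sets were compressed near the top of the signal range was not tested.

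Of the 28 measured targets outside glycolysis, Cited2, which competes with HIF for its coactivators, was higher at 0.86 (349 against 634), and RNA276 was higher still at 870. Ccng2, a cyclin linked to arrest, and Wsb1, a ubiquitin ligase adaptor, were higher at 0.78 and 0.67. Pdgfb, a growth factor, was lower at -0.77 (258 against 152). The median of these 28 genes was 0.27.

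Some members are also known to respond to endoplasmic reticulum or amino acid stress, among them Vegfa, Ero1a and Ddit4. Of 20 measured genes of those stress responses, 17 were above 0 and 3 below, where 50.1% of all measured genes were above. In truncated Egr3, 5 were at least 1.5-fold higher, where 4.7% of all were, and 1 was 1.5-fold lower, where 4.59% were. Their median was 0.25. Truncated Egr3 was the highest of the 4 RNAs for 15 of the 20, where it was for 24.0% of all genes. Ddit3 was the largest, at 2.08. The part of stress signalling in the values of the members was not tested. The 12 myotube markers had a median of -0.21, led by Myod1 at -0.39 and Myog at -0.35, and the 9 housekeeping genes with a value had the same median, with the largest differences in B2m at -0.70 and Gusb at 0.42.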

How the data were processed

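The authors deposited 1 linear array intensity for each probe set, with the same trimmed mean on all 8 arrays. How they scaled the arrays, and with what software, is not given in the sources used here. Such scaling would hide a shift in total signal between RNAs. Probe sets were named from the platform table and updated by gene number through RefSeq (GRCm38.p6): 20380 of 22690 on type A and 14661 of 22575 on type B had 1 symbol, 691 and 245 had several and were left unnamed, and 20351 and 14486 matched by gene number. Floors were the 50th (type A) and 60th (type B) percentiles of the labelled RNAs. The members, lists and tests were chosen with earlier results of these data known. All members are named. From the other lists, genes past 2-fold or else the 2 largest differences are named. Further genes (Ppp1r3c, Aldoa, Pgk1, Ldha, Pfkl, Pgam1, Tpi1, Cited2, Ccng2, Wsb1, Pdgfb, Pecam1, Ptprc, Fap, Col1a1, Col1a2) were named after their values were seen. The counting was tested on simulated signals with large changes planted in bright genes, which does not check smaller changes or dim genes. Alternatives changed the scaling, the floor, the fold threshold and the choice of probe set. The number of arrays limits the precision. Calculations ran in Python 3.11.15 with pandas 2.3.3, numpy 2.4.6, statsmodels 0.14.6 and scipy 1.17.1, and plots in matplotlib 3.10.9.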

Additional observations from a re-analysis of the deposited data

Results flagged for a closer look

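Epas1 on array type B read 468 in RNA275, which belongs to no group and enters no contrast, and 189 in wildtype, the higher of the labelled RNAs. The signal of RNA275 was 1.31 in log2 above the wildtype RNA. It is listed because it lies at least 2-fold above both labelled RNAs in data the contrast does not use. No other probe set of the members did once signals below the floor were raised to it. The type A probe set of Epas1 was also highest in RNA275, at 75.7, close to the floor. Its source was not tested.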

How the results depend on the processing

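With 1 RNA per label, the alternatives bear on processing and say nothing of how cultures vary. No paired analysis was possible because each label has 1 RNA. The member count of 5 at 2-fold became 18 at 1.5-fold and 0 at 3-fold, and 1 member, Epas1, was 2-fold lower with no floor; under the other alternatives it lay between 4 and 7. The count of all genes higher in truncated Egr3 went from 55 to 87 with equal medians, 84 with the lower floor, 603 with no floor, 484 at 1.5-fold and 8 at 3-fold. The count lower went from 116 to 185 with the lower floor, 76 with the higher floor, 1206 with no floor, 473 at 1.5-fold and 38 at 3-fold. Equal medians raised the share of higher genes among those past 2-fold from 32.2% to 48.3% and the median of type B from 0.03 to 0.17. Medians of targets lay between 0.66 and 0.79 and of regulators between 0.32 and 0.56. The count of members highest in truncated Egr3 lay between 21 and 25, with 25 for the brightest probe set of either type. Of the member values under alternatives, 259 moved by less than the technical SD and 16 by more, and 26 of 28 members kept their sign throughout; the exceptions were Arnt and Kdm3a. Leaving out probe sets marked for cross-hybridisation, type A alone, and counting only genes above the floor in at least 2 RNAs were chosen after seeing the data. Signal over background limits the dim genes: 3 members are bounds, the representing probe sets of 3 more (Epas1, Adm, Car12) were below the floor in both labelled RNAs, and of these Epas1 and Adm were read on type B.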

Other observations

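RNA275 was the lowest RNA for 9 of 12 measured glycolytic, lactate export and glycogen genes, where it was for 21.9% of all genes. Truncated Egr3 was the highest RNA for 7 of them, where it was for 24.0% of all genes. Among the stress response genes truncated Egr3 was the highest RNA for 15 of 20, and RNA275 the lowest for 11.

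Neither the oxygen supply of the cultures nor their density was given in the labels, and no value here measures them.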
